A study of Homo sapiens with 6 samples.

Results

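The resting transcriptome of THP-1 cells was read from the 3 vehicle libraries of the series, out of 6 libraries in all. THP-1 is a human cell line grown from the blood of a patient with acute monocytic leukaemia, and it is used as a model of the blood monocyte. The members were chosen by label alone: every library whose label names DMSO as the agent, in replicates 1, 2 and 3. DMSO is the solvent in which the drug was given, its concentration is not given in the sources used here, and the cells stayed in it for 6 h. The other 3 libraries received 10 uM mebendazole for the same 6 h and were not used. Both groups grew in RPMI medium with fetal bovine serum, penicillin and streptomycin. The 3 libraries come from a single line, so they describe that line and not monocytes of different donors. The labels number the libraries as pairs with the treated ones but do not say whether they came from separate cultures, so the spread given here may be technical.

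Monocytes are short-lived cells of innate immunity that leave the bone marrow, patrol the blood and turn into macrophages or dendritic cells in tissue. They recognise microbes through Toll-like and other pattern receptors, take up particles through Fc receptors, integrins and lectins, and answer with cytokines and chemokines that are mostly kept low until a stimulus arrives. THP-1 cells differ from blood monocytes in that they divide without end and carry a fusion of the genes MLL (KMT2A) and MLLT3, which in leukaemia keeps HOXA genes and other progenitor genes active.

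RNA levels were read as counts for 23710 gene symbols, and the 3 libraries held 14060591, 13420558 and 15727667 reads in genes. Levels are given as CPM, the reads of a gene per 1000000 reads in genes after TMM scaling of the library sizes, and as mean ± SD of the 3 libraries where a single value is printed. CPM is not corrected for transcript length, so levels of different genes are ordered as TPM, which divides by the median transcript length of the gene and scales each library to a common total. A gene is termed expressed when it reached 1 CPM or more in all 3 libraries, which held for 12565 genes, or 53% of the table. Another 584 genes (2.46%) reached 1 CPM in some libraries and not in others. A further 4470 genes (18.9%) had reads but stayed under 1 CPM in every library, and 6091 genes (25.7%) had no read at all. No read in 43208816 allows a level of up to 0.0694 CPM, a limit that covers counting error only. Of the 18926 protein-coding genes, 62.7% were expressed and 17.3% had no read.

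The label was checked against markers of monocytes and of other cell types. All 10 monocytic markers (CD14, CD33, LYZ, CSF1R, ITGAM, SPI1, FCGR1A, CD4, CD68 and TYROBP) were expressed, at mean levels from 21.3 to 493 CPM, and their summed level was 2551, 2424 and 2510 CPM in the 3 libraries. Of 27 markers of T, B and NK cells, erythroid cells, megakaryocytes, neutrophils, epithelium, endothelium and fibroblasts, 1 was expressed and 7 had no read. That 1 was NKG7, a granule membrane protein of cytotoxic cells, at 16.3, 15.5 and 14.4 CPM. The T cell receptor chain CD3E had 1 read in all, the globin gene HBB had none, and neither had MS4A1 (CD20) or the neutrophil marker CEACAM8. The libraries carried every monocytic marker examined, and apart from NKG7 the markers of other types did not meet the threshold. In bulk RNA, fewer cells of a type and less RNA per cell cannot be told apart.

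The genes with most reads belonged to housekeeping families, with a few myeloid genes among them. CAP1, a regulator of actin filament turnover, took the most reads with 11257, 11136 and 11612 CPM, followed by PPT1, a lysosomal enzyme that removes palmitate from proteins, with 10003, 9745 and 10103 CPM. The translation elongation factor EEF1A1 had 8912, 8588 and 8897 CPM, beta actin (ACTB) had 8822, 8206 and 8597 CPM, and the ferritin light chain FTL had 6261, 6164 and 6737 CPM. For each of these genes the 3 libraries lay close together, and the order of the 5 genes by reads was the same in every library. The 100 genes with most reads held 20.2%, 20% and 20.5% of all reads, and the 1000 genes with most reads held 51.3%, 50.9% and 51.6%. A mean of 1000 CPM or more was reached by 88 genes, 100 CPM by 2321 genes and 10 CPM by 9495 genes, and the median was 31.8 CPM over expressed genes and 2.22 CPM over all genes of the table.

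Division by transcript length moved the small ribosomal proteins up. FTL then stood highest with 12988, 12869.5 and 13626 TPM, ahead of RPS18, a protein of the small ribosomal subunit, with 9671, 9766 and 10041 TPM, ACTB with 8868, 8302 and 8426 TPM, CAP1 with 8527, 8490.2 and 8576 TPM and PPT1 with 8037, 7881 and 7914 TPM. Ribosomal proteins made up 10 of the 30 genes with the highest CPM and 19 of the 30 with the highest TPM, and 17 genes were in both lists. Of the 85 cytoplasmic ribosomal protein genes 80 (94.1%) were expressed, and together they took 8.18% of all reads. Heat shock chaperones were also among the genes with most reads: HSPA8, the constitutive cytosolic HSP70, at 5285 ± 60.3 CPM, HSP90AB1 at 3315 ± 59.96 CPM, HSP90AA1 at 3041 ± 5.47 CPM and HSP90B1, the form of the endoplasmic reticulum, at 2288 ± 14.04 CPM. The myeloid genes in this top range are described further on, among them AZU1, CHI3L1, ITGB2 and CTSG.

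Ribosomal protein messages are known for a run of pyrimidines (C and T) at their 5′ end, which growth signals use to set their translation. The start windows of the highest ribosomal protein and translation genes are shown because ribosomal proteins hold 19 of the first 30 places by TPM. Each window holds 15 bases on either side of the RefSeq start in GRCh38.p14, written 5′ to 3′ on the gene's strand, and capitals mark an unbroken run of C and T of at least 8 bases that includes the start.
RPS18: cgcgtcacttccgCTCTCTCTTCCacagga
RPS27: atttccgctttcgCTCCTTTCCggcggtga
RPLP1: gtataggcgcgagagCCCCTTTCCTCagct
RPS6: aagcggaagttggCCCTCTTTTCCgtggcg
RPS3: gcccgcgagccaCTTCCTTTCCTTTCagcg
EEF1A1: gtcgccgtgaacgTTCTTTTTCgcaacggg
TPT1: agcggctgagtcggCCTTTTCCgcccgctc
RPL19: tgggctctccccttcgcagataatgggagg
RPL11: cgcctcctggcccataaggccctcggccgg
The windows lie at chr6:33272060-33272089 (plus strand) for RPS18, chr1:153990747-153990776 (plus strand) for RPS27, chr15:69452803-69452832 (plus strand) for RPLP1, chr9:19380222-19380251 (minus strand) for RPS6 and chr11:75399503-75399532 (plus strand) for RPS3. Those of the translation factors are chr6:73521018-73521047 (minus strand) for EEF1A1 and chr13:45341169-45341198 (minus strand) for TPT1, and those of the last pair are chr17:39200268-39200297 (plus strand) for RPL19 and chr1:23691764-23691793 (plus strand) for RPL11. RPL19 and RPL11 have no such run across the listed start, although their levels, 3741 ± 153 TPM and 3344 ± 142 TPM, lie in the same top range. In RPL19 a run of at least 8 bases ends at the base before the listed start, so its absence depends on where the start is placed. A run that includes the start is found in 41 of the 67 ribosomal protein promoters matched (61.2%), against 4.67% of all 14640 protein-coding promoters matched. The share was 5.50% among all expressed genes and 2.53% among genes with no read. A match is a property of the sequence and was not related to translation here.

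The pair of genes with most reads, CAP1 and PPT1, are neighbours on chromosome 1 and lie tail to tail, with overlapping ends whose reads cannot be assigned without strand. Many genes around them were also high. Protein-coding genes were placed in the order of the RefSeq annotation of GRCh38.p14, and the median TPM was taken over every run of 20 successive genes. Of 18335 such windows, which overlap each other, the highest medians belonged to windows that hold CAP1, with 206 TPM against 7.53 TPM for the middle window. The next distinct place was on chromosome 19, with a median of 115 TPM from C19orf21 to SBNO2.

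From 20 genes before CAP1 to 60 genes after it, 32 of 81 genes (39.5%) had a mean of 100 TPM or more. The share was 9.19% of all placed protein-coding genes with a transcript length. This stretch was drawn around the gene with most reads, and CAP1 and PPT1 are counted in it. Its share is therefore not independent of the levels that led to the choice. The stretch held 7 of the 88 genes at 1000 CPM or more and 4.12% of all reads. These 7 were CAP1, PPT1, the poly(A)-binding protein PABPC4 with 1185, 1134 and 1179 CPM, the lamin-processing protease ZMPSTE24 with 1140.3, 1119.8 and 1142 CPM, the collagen chain COL9A2 with 1493, 1498 and 1549.9 CPM, the trafficking protein SMAP2 with 1264, 1200.2 and 1259.6 CPM and the RNA-binding protein YBX1 with 5144, 5191 and 5515 CPM. COL9A2, a cartilage collagen, is a gene of another tissue, and its level was steady over the libraries. Tissue-restricted genes within the same stretch were silent: GUCA2A, GUCA2B and CLDN19 had no read, and EDN2 had 2 reads. The oncogene MYCL1, which lies before CAP1, stood at 59.6 ± 0.796 CPM. DNA copy number was not measured here.

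**Figure D1:**
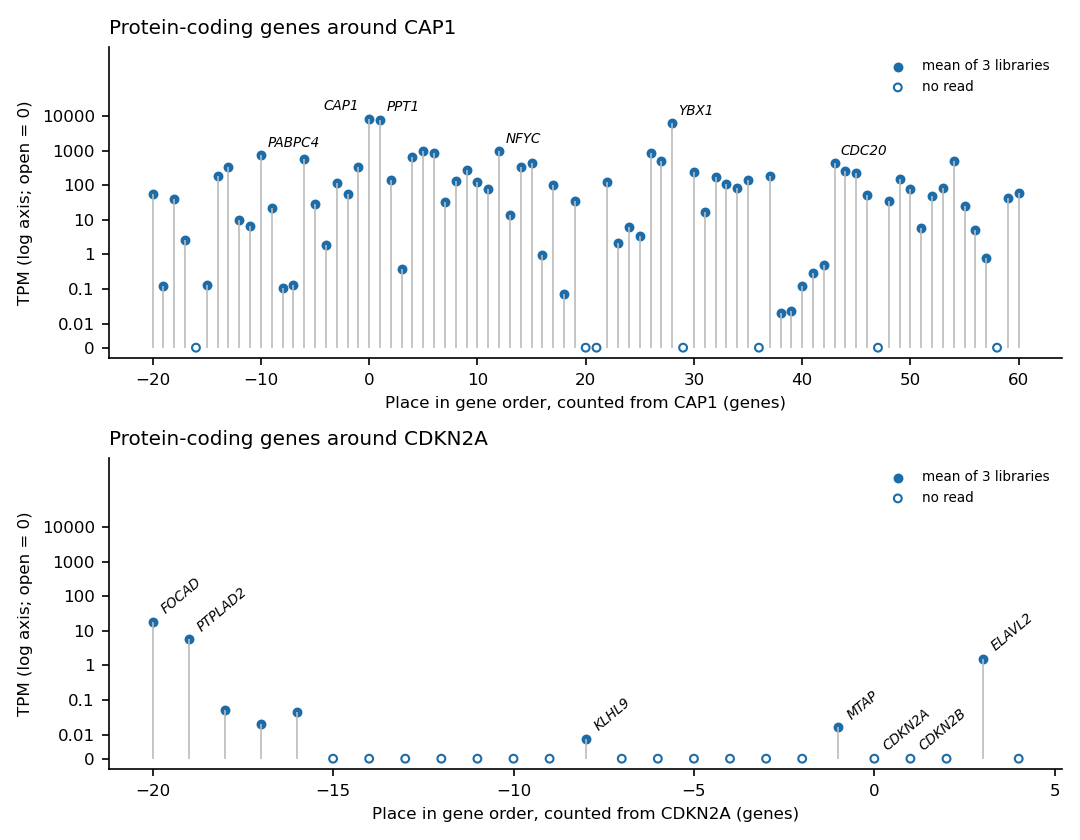
Mean TPM of the 3 DMSO libraries (log axis, genes without a read drawn as open circles at 0) for protein-coding genes in their order along the chromosome, around CAP1 (top) and around CDKN2A (bottom). In the top panel CAP1, PPT1 and YBX1 stand above a run of genes near or above 100 TPM, while in the bottom panel the genes between PTPLAD2 and ELAVL2 lie at or near 0.

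Genes that define monocytes were nearly all expressed. Of 30 monocyte identity genes 27 (90%) were expressed, against 53% of the whole table, and their summed level was 6731, 6495 and 6654 CPM in the 3 libraries. The median over the 30 genes was 152 CPM, against 2.22 CPM over all genes. By TPM the list was led by FCER1G, the signalling chain of Fc receptors, with 1724, 1667 and 1781 TPM, lysozyme (LYZ) with 1134, 1168 and 1126 TPM, and LAPTM5, a lysosomal membrane protein of blood cells, with 919, 852 and 859 TPM. The signalling adaptor TYROBP had 776, 749 and 801 TPM and AIF1, an actin-binding protein of monocytes, had 733, 758 and 786 TPM, and these last values overlapped between the pair. CSF1R, the receptor that keeps monocytes and macrophages alive, had 517, 474 and 488 CPM, with all 3 libraries within a narrow range. The migration receptor CCR2, the mark of classical monocytes, had 306, 311 and 309 CPM.

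Several well-known monocyte genes stood lower in the list. CD14, the co-receptor for bacterial lipopolysaccharide, stood at 21.2, 21.9 and 20.8 CPM (21.8 ± 0.887 TPM), and at this TPM its values overlapped those of CLEC12A, an inhibitory lectin, with 21.1 ± 1.53 TPM. The calcium-binding alarmin S100A8 had 11.8, 13.3 and 12.9 CPM, while its partner S100A9 had 68.2, 73.9 and 71.2 CPM. Per length S100A9 (223 ± 10.3 TPM) overlapped CCR2 (234 ± 4.47 TPM) and lay above S100A8 (45.04 ± 2.87 TPM) with no overlap. S100A12 reached 1 CPM in some libraries only, with 0.995, 0.888 and 1.15 CPM. The lectin FCN1, which is abundant in blood monocytes, had no read, and whether the counting lost reads at this symbol was not tested. These values show a list that was broadly present, with S100A12 and FCN1 near or at 0 in every library.

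**Figure D2:**
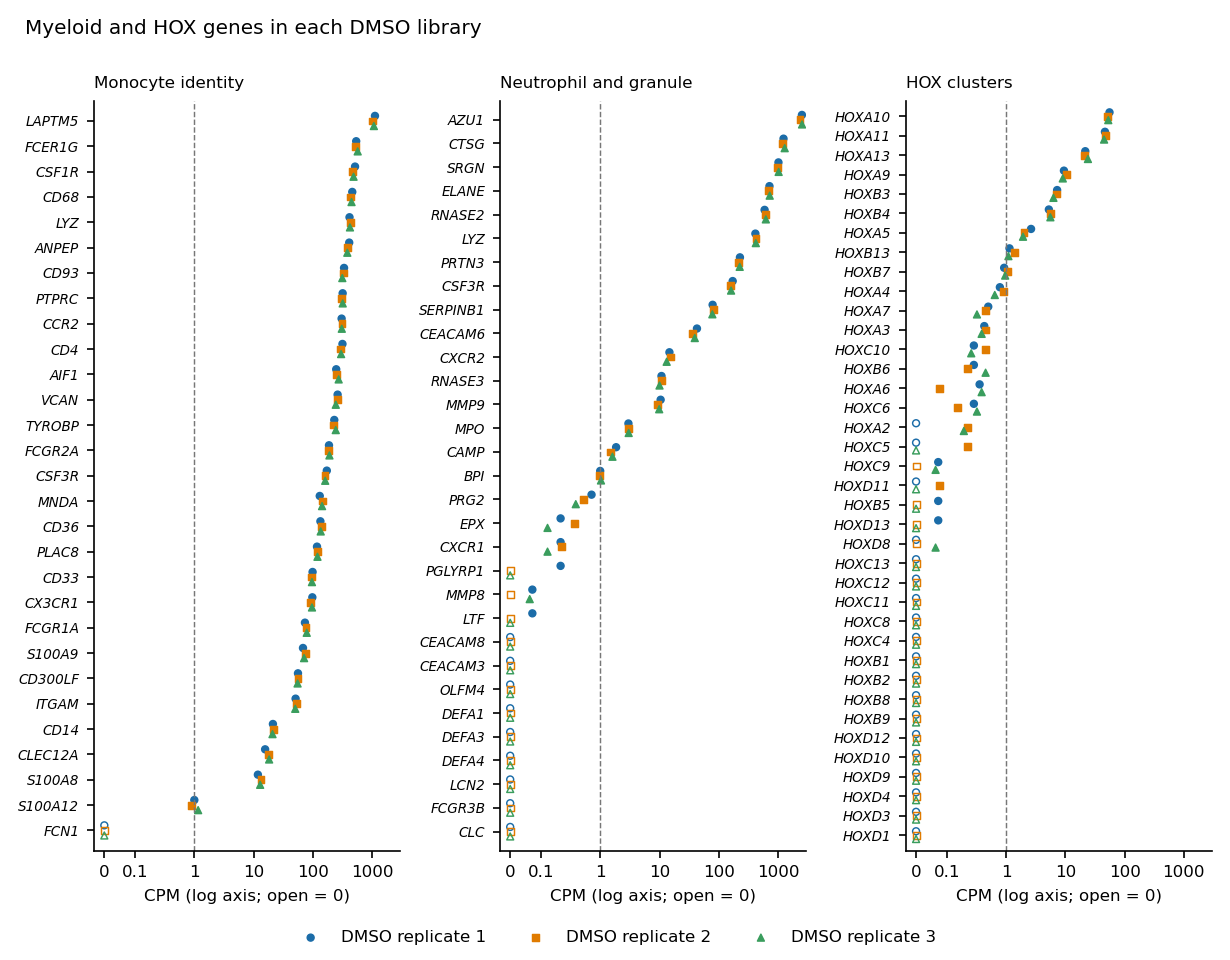
CPM in each DMSO library (log axis, open symbols at 0) for the genes reported of the monocyte identity, neutrophil and granule, and HOX lists, with the dashed line at 1 CPM. The 3 libraries lie on top of each other for genes above 10 CPM and part only near the limit of detection, and the granule list runs from AZU1 above 1000 CPM to 9 genes at 0.

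Granule genes ranged from among the highest of the table to no read. Early (azurophil) granule proteins are made by promyelocytes and promonocytes, and later granules by maturing neutrophils. AZU1, an antimicrobial member of the serine protease family without enzyme activity, had 2548, 2364 and 2562 CPM, cathepsin G (CTSG) had 1245, 1213 and 1303 CPM, and neutrophil elastase (ELANE) had 721, 699 and 728 CPM. Proteinase 3 (PRTN3) had 228, 213 and 226 CPM, and RNASE2, an antiviral ribonuclease, had 596, 623 and 626 CPM. Per length the order was AZU1 (3439.8 ± 119.9 TPM), CTSG (2560.1 ± 51.6 TPM), the granule proteoglycan SRGN (1523 ± 15.6 TPM), RNASE2 (1475 ± 37.4 TPM), ELANE (1330.1 ± 16.3 TPM) and LYZ (1143 ± 22.4 TPM), and no neighbours in it overlapped. Last in this order came another azurophil gene, myeloperoxidase (MPO), the most abundant enzyme of these granules in neutrophils, with 2.98, 2.96 and 3.01 CPM (1.68 ± 0.0143 TPM), and the defensin DEFA4 had no read. The genes of later granules differed among themselves. LCN2, CEACAM8 and OLFM4 had no read, LTF had 1 and MMP8 had 2. MMP9 and CAMP were expressed, with means of 7.62 TPM and 3.99 TPM, above MPO. CEACAM6, of the same list, was also expressed, with a mean of 26.6 TPM. In all, 15 of 31 granule genes (48.4%) were expressed, near the 53% of the table, 9 had no read, and the median over the list was 0.994 CPM. For DEFA1 and DEFA3, which are near-identical copies, the absence of reads does not show that the RNA is absent.

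Macrophage genes were partly on. Of 28 genes of mature macrophages 16 (57.1%) were expressed, a share near the 53% of the table. CHI3L1, a secreted chitinase-like protein, had 2794, 2742 and 2834 CPM and was among the 30 genes with the highest CPM. GPNMB, a lysosomal glycoprotein, had 176, 176 and 169.8 CPM, and TREM2, a lipid-sensing receptor of tissue macrophages, had 144, 138 and 144 CPM. The mannose receptor MRC1 had no read, the complement genes C1QA, C1QB and C1QC had 23, 2 and 18 reads in all, and the haemoglobin scavenger receptor CD163 stood at 2.42, 1.85 and 2.50 CPM. FCGR3A (CD16), the mark of non-classical monocytes, had 2 reads. Whether the counting lost reads at MRC1 or FCGR3A was not tested, so these low values do not show that the RNA is absent. Of 20 dendritic cell genes 6 (30%) were expressed, led by TPM by the maturation marker CD83 with 30.8 ± 0.939 TPM, while CLEC4C and GZMB had no read and CCR7, the receptor for homing to lymph nodes, had 4.

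Transcription factors of the myeloid lineage were mostly expressed, 32 of 40 (80%), against 53% of the table. By TPM, IRF8, which directs progenitors towards monocytes, led with 537, 538 and 535 TPM, overlapping SPI1 (PU.1), the master factor of myeloid cells, with 537, 502 and 514 TPM. CEBPA, which starts the granulocyte and monocyte programme, followed with 330.3, 322 and 334 TPM, and MYB, a factor of dividing progenitors, with 161, 159.6 and 155 TPM. GFI1, a repressor of granulocyte precursors, had 116, 107 and 104 TPM, and RUNX1 had 65.03, 68.2 and 61.6 TPM. KLF4, which acts late in monocyte differentiation, was lower, with 32.8 ± 1.33 TPM, and CEBPE, a factor of late granulocytes, stood at 7.43 ± 0.516 TPM. Factors known from the red cell, platelet and lymphoid lineages differed among themselves. BCL11A, a factor of B cells and progenitors, had 29.3 ± 1.61 TPM, NFE2, a factor of red cells and platelets, had 28.2 ± 0.829 TPM, and GATA2 had 12.1 ± 0.360 TPM. The lymphoid factors TCF7, IKZF3, IKZF2 and EBF1 met the threshold of 1 CPM, with 1.70 ± 0.180 TPM, 1.53 ± 0.193 TPM, 1.33 ± 0.0782 TPM and 0.813 ± 0.0776 TPM. Others did not: GATA1 had 1 read, its partner KLF1 had 2, GFI1B had none, PAX5 had 16 and GATA3 had 8.

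The HOX genes, which encode positional identity in the embryo and self-renewal in blood progenitors, were on in a narrow part of their clusters. Of 39 HOX genes 9 (23.1%) were expressed and 15 (38.5%) had no read, against 53% and 25.7% of the table. HOXA10 had 55.6, 51.4 and 53.02 CPM and HOXA11 had 46.6, 46.97 and 45.1 CPM, or 44.4 ± 1.90 TPM and 36.5 ± 1.40 TPM per length, with no overlap. HOXA9, a main effector of MLL fusions, had 9.45, 10.6 and 9.04 CPM, and HOXA13 had 21.7, 21.3 and 24.04 CPM. HOXA5 stood at 2.18 ± 0.388 CPM, whereas HOXA7, which lies between expressed HOXA genes, had 18 reads. HOXB3 and HOXB4 stood at 6.88 ± 0.520 CPM and 5.46 ± 0.176 CPM, and all 9 HOXD genes lay under 1 CPM. The non-coding RNAs HOTTIP (9.45, 9.54 and 8.46 CPM) and HOXA11-AS (16.2, 14.9 and 17.6 CPM), which lie at the 5′ end of the HOXA cluster, were expressed, and HOTAIR, in the HOXC cluster, had 1 read. HOXA11 and HOXA11-AS overlap, and a library without strand cannot tell their reads apart. The table also has a row for a joint HOXA10-HOXA9 transcript, which had no read, and the treatment of reads that fall on exons of both rows is not given in the sources used here, so the level of HOXA9 is uncertain.

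Of 24 genes listed for their links to MLL leukaemia 22 (91.7%) were expressed, against 53% of the table and 62.7% of protein-coding genes. The list was not limited to targets of the fusion. MLL itself had 62.3, 64.6 and 61.7 CPM, and its fusion partner MLLT3 had 9.02, 8.36 and 6.67 CPM. Reads of a fusion transcript would be divided between these symbols, and the table does not identify them. The cell cycle kinase CDK6 had 328, 353 and 319.5 CPM, the HOX cofactor PBX3 had 275, 262 and 264 CPM, and the histone methyltransferase DOT1L, which MLL fusions recruit, had 119, 116 and 113 CPM. MEF2C and IGF2BP2 stood at 193 ± 6.19 CPM and 173 ± 1.81 CPM, and the receptor FLT3 at 61.3 ± 1.23 CPM. MEIS1, the best-known HOXA9 cofactor in MLL leukaemia, had 2, 1 and 0 reads, and EYA1 had 29 in all. MEIS1 is known as active in many MLL-rearranged leukaemias, and whether the counting lost reads at this symbol was not tested. The other 22 genes reached 1 CPM in all 3 libraries.

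Tumour suppressor genes showed a gap on chromosome 9. CDKN2A, which encodes the cell cycle inhibitors p16 and p14ARF, and its neighbour CDKN2B (p15) had no read in any library. MTAP, the methionine salvage enzyme next to them, had 2 reads in all, KLHL9 had 1, and DMRTA1 had none. In the gene order of this region the interferon genes between PTPLAD2 and CDKN2A were also at or near 0, whereas FOCAD (58.98, 56.4 and 56.9 CPM) and PTPLAD2 (24.7, 26.7 and 26.1 CPM) before them and ELAVL2 (3.06, 3.40 and 3.14 CPM) after them were expressed. MTAP is active in most tissues, as is KLHL9, while the interferon genes are silent in most resting cells. The other inhibitors of the family differed from these: CDKN2C (p18) had 289, 293 and 312 CPM, CDKN2D (p19) had 6.54, 5.18 and 5.96 CPM, and CDKN1A (p21) had 21.6, 16.3 and 18.02 CPM. RB1, the brake on entry into S phase, was expressed at 74.3, 72.1 and 74.1 CPM. In all 24 of the 28 tumour suppressor genes (85.7%) were expressed, against 53% of the table. Deletion of the region was not measured in this series, and its part was not tested.

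Genes of cell division were on. Of 34 proliferation genes 33 (97.1%) were expressed, against 53% of the table. Their median was 60.2 CPM and their summed level was 3944, 3920 and 3953 CPM. The replication helicase subunits MCM3 and MCM4 had 377 ± 4.40 CPM and 314 ± 9.79 CPM, topoisomerase TOP2A had 250.3 ± 8.70 CPM, and CDC20, which triggers the exit from mitosis, had 426, 387 and 427 CPM. Among the D cyclins, which drive entry into the cycle, CCND3 stood at 326, 311 and 325 CPM and CCND1 at 42.4, 45.3 and 39.4 CPM, while CCND2 had 32 reads and stayed under 1 CPM in every library. All 18 glycolysis genes and all 19 actin cytoskeleton genes were expressed. Within the actin list the intermediate filament gene VIM was low per length, with 13.9 ± 0.646 TPM, whereas LCP1, the leukocyte plastin, had 831 ± 8.01 TPM. VIM is known as an abundant RNA of THP-1 cells, so its value here is uncertain.

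Toll-like receptors, which sense microbial products, were expressed in part. TLR2, which with TLR1 or TLR6 recognises bacterial lipoproteins, had 123, 124 and 121 CPM, and TLR4, the receptor for lipopolysaccharide, had 58.3, 56.4 and 55.9 CPM. Per length the order was TLR2 (76.8 ± 2.31 TPM), TLR4 (21.7 ± 0.727 TPM), TLR6 (12.3 ± 1.15 TPM), TLR1 (6.36 ± 0.220 TPM) and TLR5, the flagellin receptor (2.84 ± 0.140 TPM), with no overlap between neighbours. The endosomal receptors for nucleic acids came after these: TLR9 (1.63 ± 0.371 TPM) and TLR8 (1.48 ± 0.232 TPM) overlapped, TLR7 had 0.727 ± 0.140 TPM, and TLR3, the receptor for double-stranded RNA, had no read. TLR10 had 16 reads. LY96 (MD-2), the small protein through which TLR4 binds lipopolysaccharide, stood at the threshold with 0.995, 1.11 and 0.962 CPM. The adaptor MYD88 had 86.7, 86.8 and 88.2 CPM and the kinase IRAK1 had 327, 299 and 309 CPM, while IRAK3, a brake on this pathway, had 166, 172 and 160.1 CPM. TICAM2 (TRAM) had 4 reads, but its exons are shared with a joint TMED7-TICAM2 row of the table, so this value is uncertain. In all 19 of 24 genes of the list (79.2%) were expressed, against 53% of the table, with a median of 16.7 CPM.

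Sensors in the cytosol were expressed in 26 of 31 cases (83.9%), against 53% of the table. TMEM173 (STING), the adaptor for cytosolic DNA, had 229, 214 and 225 CPM, and MB21D1 (cGAS), the enzyme that signals to it, had 42.2, 41.9 and 45.4 CPM. The inflammasome sensor NLRP3 had 149, 141 and 141 CPM, its adaptor PYCARD (ASC) had 105, 95.7 and 106 CPM, and caspase 1 (CASP1) had 74.6, 77.1 and 75.5 CPM. The pore-forming protein GSDMD had 64.9, 66.7 and 61.9 CPM. AIM2, the inflammasome sensor of DNA, had 1 read in all 3 libraries, and ZBP1 and NLRP7 had none. The RNA sensors DDX58 (RIG-I) and IFIH1 (MDA5) were expressed at 10.1 ± 1.04 CPM and 26.7 ± 0.677 CPM.

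**Figure D3:**
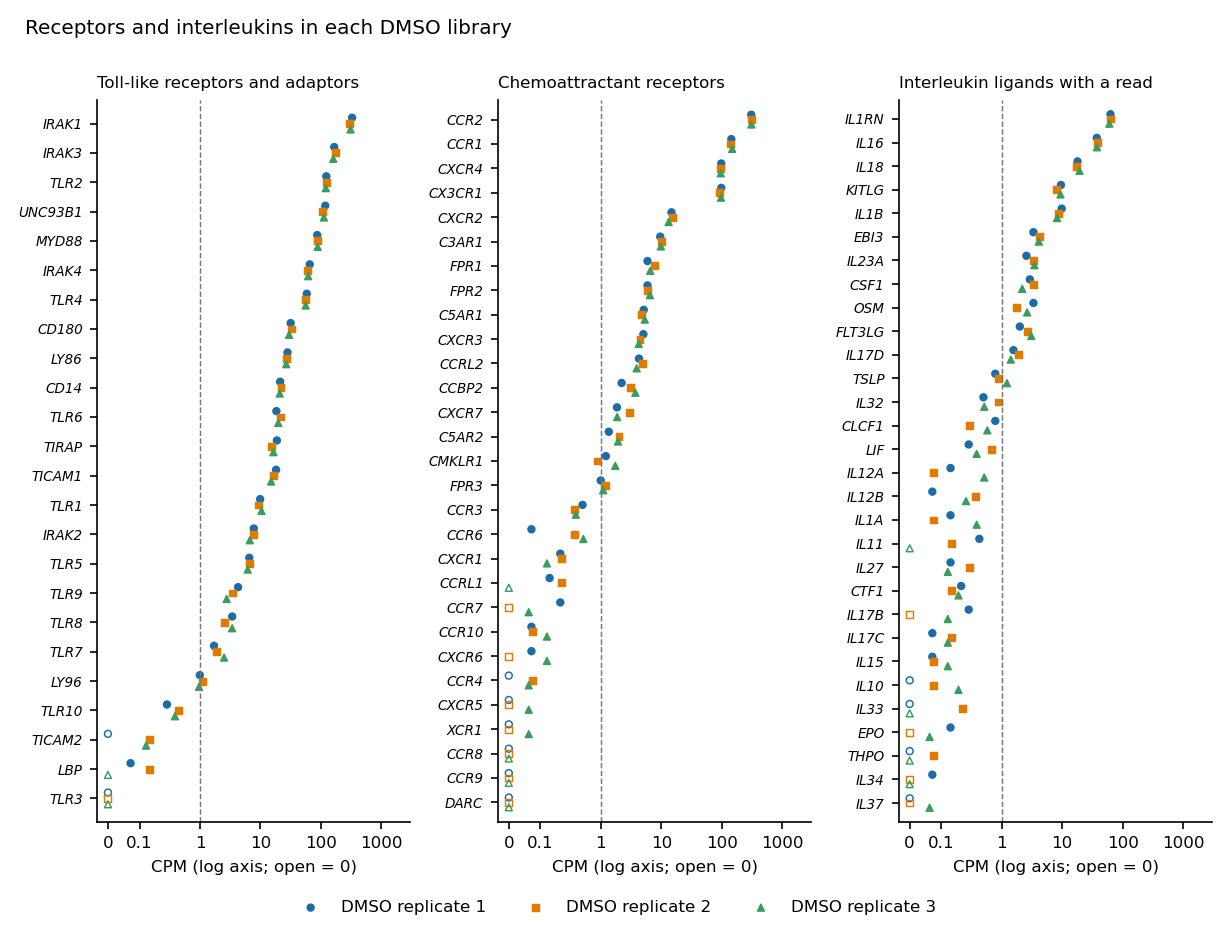
CPM in each DMSO library (log axis, open symbols at 0) for the genes reported of the Toll-like receptor list, the chemoattractant receptors and the interleukin ligands with at least 1 read, with the dashed line at 1 CPM. The 3 libraries lie close together for receptors above 10 CPM and part near 0, and most interleukins lie to the left of the line.

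Of 56 cytokine receptor genes 32 (57.1%) were expressed, a share near the 53% of the table. IL6R, the ligand-binding chain for interleukin 6, led by TPM with 542, 515 and 506 TPM, while its signalling partner IL6ST (gp130) had 54.3, 57.00 and 49.2 TPM. Next came IL10RB with 156 ± 3.77 TPM and the interferon gamma receptor chains IFNGR2 with 122 ± 5.29 TPM and IFNGR1 with 104 ± 1.25 TPM. The receptor CSF3R (for G-CSF) had 172, 160.4 and 162 CPM, and the GM-CSF receptor chains CSF2RB and CSF2RA had 92.2, 87.4 and 90.9 CPM and 35.7, 32.6 and 38.5 CPM. IL17RA had 340.1, 338 and 314 CPM. Receptor chains best known from lymphocytes ranged from high to silent. IL12RB2, a chain of the interleukin 12 receptor, had 49.5 ± 2.13 TPM, IL27RA had 19.3 ± 1.24 TPM, IL7R had 14.2 ± 2.64 TPM and IL12RB1 had 7.61 ± 0.647 TPM. The shared chain IL2RG had 5.50 ± 0.755 TPM and IL21R had 4.63 ± 0.291 TPM, while IL2RA and IL23R had no read, as had IL13RA2 and the lambda interferon receptor IFNLR1. In the TNF receptor family 13 of 29 genes (44.8%) were expressed, with TNFRSF1B at 173 ± 5.02 CPM and TNFRSF1A at 95.6 ± 1.04 CPM, while FAS, the death receptor, had 14 reads.

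Chemoattractant receptors guide monocytes from blood to tissue, and 14 of 30 (46.7%) were expressed, under the 53% of the table. CCR2 led by TPM with 234 ± 4.47 TPM, followed by CXCR4, the receptor that retains cells in marrow (98.01 ± 2.32 TPM), and CCR1 (95.8 ± 0.756 TPM), which overlapped each other, and by CX3CR1, the fractalkine receptor (54.4 ± 1.54 TPM). The other receptors with a transcript length lay under 10 TPM. CXCR2, a neutrophil receptor, had 14.7, 15.1 and 13.2 CPM, the formyl peptide receptors FPR1 and FPR2 had 6.71 ± 0.909 CPM and 6.12 ± 0.310 CPM, and the complement receptors C3AR1 and C5AR1 had 9.82 ± 0.233 CPM and 5.06 ± 0.298 CPM. CCR8, CCR9 and DARC had no read.

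Receptors that bind cells, particles and antibodies followed the same pattern of a few high genes. Of 26 integrin genes 18 (69.2%) were expressed, against 53% of the table. ITGB2 (CD18), the shared beta chain of leukocyte integrins, had 1989.6, 1824 and 1913 CPM. Its alpha partners were ITGAL (CD11a) with 80.05 ± 3.54 TPM, ITGAX (CD11c) with 59.9 ± 4.02 TPM and ITGAM (CD11b) with 19.7 ± 0.805 TPM per length. Among Fc receptors 12 of 24 (50%) were expressed, near the 53% of the table. FCGR2A had 188, 182 and 191 CPM, the high-affinity receptor FCGR1A had 73.6, 76.6 and 78.9 CPM and the neonatal receptor FCGRT had 452, 423 and 469 CPM. FCGR1A and FCGR1B, and FCGR2A, FCGR2B and FCGR2C, are close copies among which reads may be divided. Of 39 SIGLEC and C-type lectin genes 21 (53.8%) were expressed, near the 53% of the table. The sialic acid receptor CD33 had 99.1, 95.2 and 96.7 CPM, the beta-glucan receptor CLEC7A had 16.8, 19.5 and 19.7 CPM, and the growth factor CLEC11A had 546, 518 and 517 CPM. CLEC4E (Mincle), a receptor for mycobacterial lipid, had 7 reads.

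Growth factor receptors and nuclear receptors included genes that are known from other tissues. Of 58 receptor tyrosine kinases 26 (44.8%) were expressed, with CSF1R first by TPM. RET, the receptor for glial-derived growth factors, came next with 212, 203 and 201 CPM (85.7 ± 3.25 TPM), followed by FGFR1 with 113, 111 and 111 CPM (42.3 ± 0.998 TPM), and these did not overlap. EGFR had 5 reads, and FGFR2, ERBB4 and EPHA3 had none. Of 48 nuclear receptors 26 (54.2%) were expressed, led per length by RXRA with 193 ± 3.76 TPM and RARA, the receptor for retinoic acid, with 87.97 ± 6.37 TPM. The glucocorticoid receptor NR3C1 had 98.8, 97.8 and 94.2 CPM and the vitamin D receptor VDR had 31.2, 28.1 and 29.6 CPM. ESR1 and HNF4A had no read. The shares of both families lay near or under the 53% of the table.

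Cytokine genes were mostly silent in the resting cells. Of 55 interleukins and growth factors 11 (20%) were expressed and 25 (45.5%) had no read, against 25.7% without a read in the table. IL1RN, the natural blocker of the interleukin 1 receptor, had 62.8, 63.8 and 60.2 CPM, and IL16 and IL18 had 37.3, 38.3 and 37.6 CPM and 17.9, 17.2 and 19.4 CPM. IL1B, the interleukin 1 that inflammasomes release, had 9.81, 8.73 and 8.21 CPM, and IL1A had 9 reads. IL6, IL2, IL3, IL4, IL5, IL13, CSF2 (GM-CSF) and CSF3 (G-CSF) had no read, IL10 had 4, and the subunits IL12A and IL12B had 11 and 10. CSF1, the ligand of CSF1R, stood at 2.91, 3.33 and 2.18 CPM, and IL34, its other ligand, had 1 read. FLT3LG, the ligand of FLT3, had 1.99, 2.66 and 3.08 CPM.

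No interferon gene was expressed. Of 21 interferon ligands 18 (85.7%) had no read, and IFNB1, IFNA21 and IFNW1 had 1 read each. Ligands of the TNF family were expressed in 11 of 18 cases (61.1%), against 53% of the table and 62.7% of protein-coding genes. TNF itself had 169, 169.97 and 135 CPM, CD70, a ligand for activated lymphocytes, had 71.3, 66.6 and 73.3 CPM, and TNFSF14 (LIGHT) had 57.6, 56.8 and 56.9 CPM. FASLG, CD40LG and TNFSF8 had no read. For TNF the highest library exceeded the lowest, replicate 3, by a factor of 1.26, above the median factor of 1.08 for genes with many reads.

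Chemokine genes were expressed in 9 of 28 cases (32.1%) in the CC family and in 5 of 20 (25%) in the CXC, C and CX3C families. The share was 53% in the table. CCL5, which attracts T cells, had 54.6, 56.95 and 58.6 CPM, and CCL2, which draws monocytes through CCR2, had 38.7, 36.5 and 35.1 CPM. CCL3 and CCL4, which signal through CCR1, stood at 5.91 ± 0.271 CPM and 3.79 ± 0.762 CPM; their copies CCL3L1, CCL3L3, CCL4L1 and CCL4L2 had no read, and reads may be divided or lost between such copies. IL8, the main attractant of neutrophils, had 14.8, 11.5 and 11.7 CPM. CXCL10, a gene that interferon turns on, had 19 reads, and CXCL5, PF4 and PPBP had none.

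Genes of antigen presentation were mostly expressed. All 18 genes of the class I pathway were expressed, with beta-2 microglobulin (B2M) at 1116, 1097 and 1117 CPM and HLA-B at 587, 579 and 593 CPM. Class I genes are highly variable between people, and the effect of this on the counting was not tested. Of 18 class II genes 15 (83.3%) were expressed, against 53% of the table. The invariant chain CD74 had 325, 288 and 311 CPM, HLA-DRB1 had 87.9, 90.4 and 91.9 CPM and HLA-DRA had 33.3, 31.7 and 31.4 CPM. The class II activator CIITA had 2.56, 2.59 and 1.99 CPM. HLA-DOA had no read. For the costimulators of T cells, CD86 had 13.9, 12.3 and 15.8 CPM, CD80 had 25 reads and CD274 (PD-L1) had 35, both under 1 CPM.

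The phagocyte oxidase makes superoxide against engulfed microbes, and the parts named here were expressed. The membrane pair CYBA (p22) and CYBB (gp91) had 624 ± 18.3 TPM and 86.2 ± 1.84 TPM, and the cytosolic parts NCF4 (p40) and NCF1 (p47) had 331 ± 9.04 TPM and 26.4 ± 1.01 TPM. Of the small GTPases, RAC2, the form of blood cells, had 1085 ± 32.6 TPM, above RAC1 with 320.2 ± 6.84 TPM. NCF1 has near-identical pseudogene copies, so its level is uncertain. The oxidases of other tissues lay under 1 CPM: NOX1 had 20 reads, NOX4 had 1, and NOX3 had none. In this list 8 of 14 genes (57.1%) were expressed, near the 53% of the table.

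Genes of other lineages had few reads, and their shares stand against 53% expressed in the table. Of 34 T and NK cell genes 5 (14.7%) were expressed and 14 had no read, and of 21 B and plasma cell genes 2 (9.52%) were expressed. LAT, an adaptor of the T cell receptor, had 17.9, 18.05 and 17.6 CPM, and BANK1, an adaptor of B cells, had 15.8, 16.9 and 17.8 CPM. Of 29 erythroid and megakaryocyte genes 4 were expressed, and 1 of these stood at 100 CPM or more, namely TFRC, the transferrin receptor of all dividing cells, with 215, 199 and 201 CPM. CD34, the mark of blood stem cells, had 3 reads, although the stem cell factor receptor KIT had 19.5, 21.3 and 19.8 CPM. Epithelial genes were expressed in 2 of 15 cases, and the adhesion gene EPCAM had 7 reads. In the list of neuron, muscle and liver genes most reads fell to MBP with 153, 150.2 and 144 CPM, which has a blood cell form besides that of myelin, and the muscle creatine kinase CKM with 15.3, 11.6 and 15.8 CPM.

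Large gene families of other tissues were silent as a group. None of 397 olfactory receptor genes was expressed and 365 (91.9%) had no read, and the same held for 37 of 40 beta defensins (92.5%) and 127 of 147 keratin genes (86.4%). The exceptions were KRT10 with 28.3, 29.1 and 26.3 CPM and DEFB1 with 4.33, 2.66 and 3.33 CPM. Of 76 MAGE, GAGE and SSX genes, which are normally active in germ cells, 72 had no read, and MAGEB2 alone was expressed, with 13.4, 11.98 and 12.95 CPM; GAGE genes are near-identical copies, where the absence of reads is not informative. Among 45 GABA and glutamate receptor genes 7 were expressed, and GRIN2D, an NMDA receptor subunit, had 51.9, 53.1 and 47.6 CPM.

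**Figure D4:**
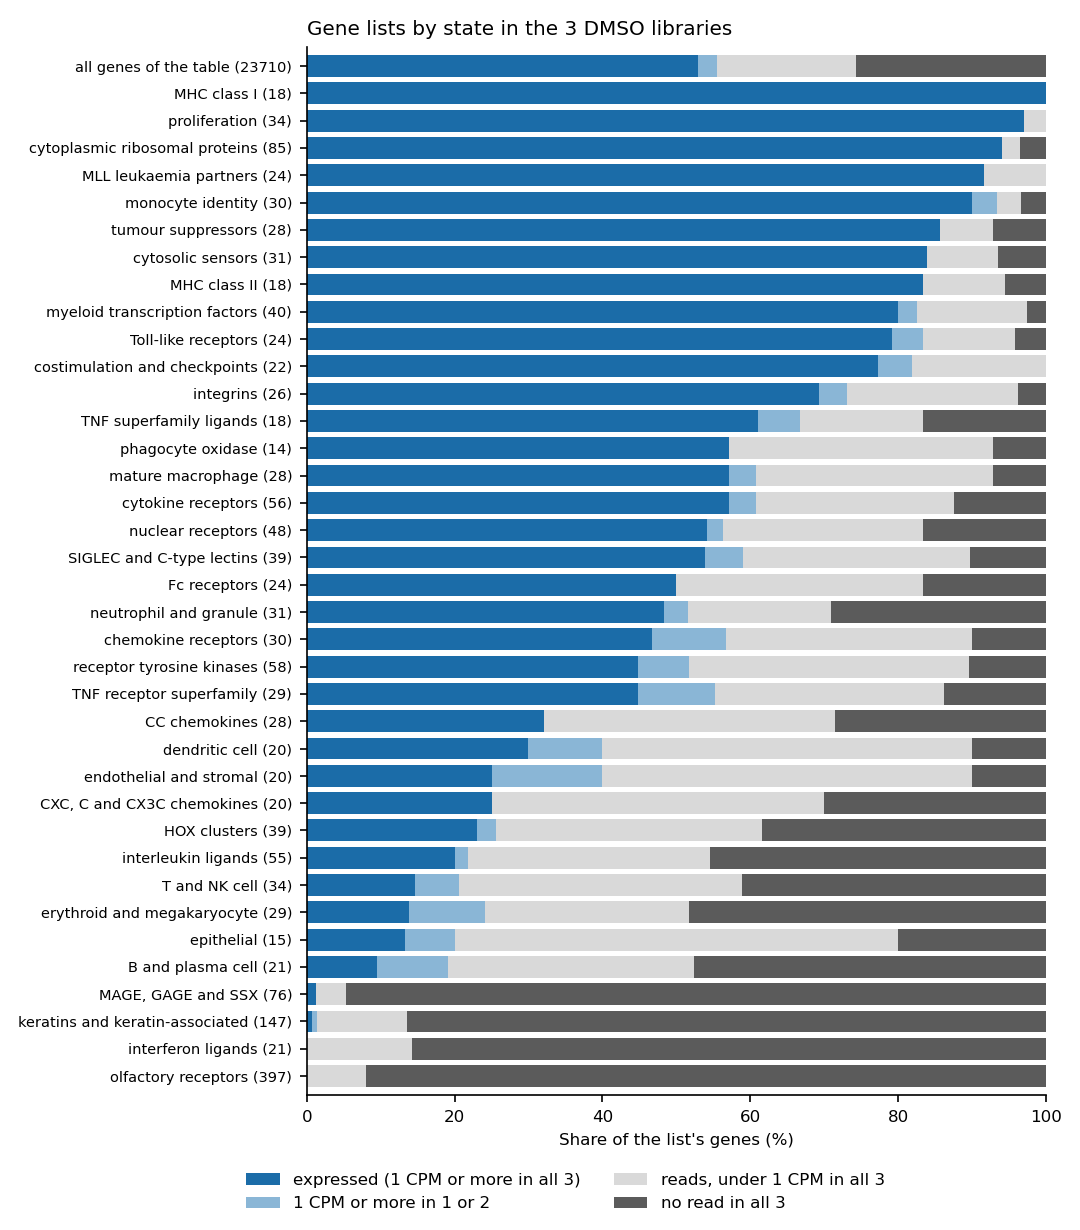
Share of the genes of each list (number of genes in parentheses) that were expressed in all 3 DMSO libraries, reached 1 CPM in some of them, had reads under 1 CPM, or had no read. The bar for all 23710 genes of the table is at the top for comparison, with 53% expressed and 25.7% without a read, and the lists run from class I antigen presentation, where all genes were expressed, to olfactory receptors, where none was.

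The library kit selects RNA with a poly(A) tail, and classes of RNA without such a tail had few reads. The share expressed was 53% in the table. Of 392 snoRNA and scaRNA genes 6 were expressed, of 1303 miRNA genes 1, and of 73 replication-dependent histone genes 4, led by HIST1H2BK with 13.9, 15.98 and 19.2 CPM. RPPH1, the RNA of ribonuclease P, had 126, 5 and 1 reads, and RMRP, the RNA of ribonuclease MRP, had 105, 5 and 1 reads. Nearly all their reads came from replicate 1, and the other libraries lay at or near 0. Of 26 long non-coding RNAs of the list 22 (84.6%) were expressed. NEAT1, the scaffold of nuclear paraspeckles, had 417, 515 and 449 CPM, MALAT1, a nuclear speckle RNA whose 3′ end is made by cleavage and carries no such tail, had 332, 397 and 342 CPM, and GAS5, a host of snoRNAs, had 336, 337 and 332 CPM. None of the genes of the mitochondrial genome is a row of the table.

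Promoters differed between housekeeping and monocyte genes in their content of CG pairs. Most housekeeping promoters lie in CpG islands, where CG pairs are not lost, while many tissue-restricted genes have few. The 90 bases before the RefSeq start (GRCh38.p14, 5′ to 3′ on the gene's strand) are shown for 3 myeloid genes and 4 genes of general or progenitor use, to show the contrast. Whether THP-1 cells use the RefSeq starts taken here and below, that of CSF1R among them, was not measured. A stretch shown may therefore not be the promoter in use. Capitals mark CG pairs, and a lone capital at an end belongs to a pair that runs over the edge.
CD14: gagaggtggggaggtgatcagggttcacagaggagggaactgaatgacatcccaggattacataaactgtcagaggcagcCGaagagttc
CSF1R: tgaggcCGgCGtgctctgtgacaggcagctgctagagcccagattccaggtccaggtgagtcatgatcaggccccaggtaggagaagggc
CTSG: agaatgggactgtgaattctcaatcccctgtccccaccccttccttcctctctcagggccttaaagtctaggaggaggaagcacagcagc
CAP1: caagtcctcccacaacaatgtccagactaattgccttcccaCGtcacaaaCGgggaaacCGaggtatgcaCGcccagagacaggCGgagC
PPT1: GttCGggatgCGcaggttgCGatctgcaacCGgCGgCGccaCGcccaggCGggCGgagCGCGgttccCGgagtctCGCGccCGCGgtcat
MCM3: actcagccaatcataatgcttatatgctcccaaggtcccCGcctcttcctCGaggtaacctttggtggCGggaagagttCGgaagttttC
MYB: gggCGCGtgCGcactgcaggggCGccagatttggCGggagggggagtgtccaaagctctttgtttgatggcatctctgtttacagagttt
They lie at chr5:140633176-140633265 (minus strand) for CD14, chr5:150113366-150113455 (minus strand) for CSF1R and chr14:24576251-24576340 (minus strand) for CTSG. The others are chr1:40040150-40040239 (plus strand) for CAP1, chr1:40097253-40097342 (minus strand) for PPT1, chr6:52284743-52284832 (minus strand) for MCM3 and chr6:135181218-135181307 (plus strand) for MYB. CTSG, with 1245, 1213 and 1303 CPM, has no CG pair in this stretch, and PPT1 has 16.

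Over the window from 250 bases before to 50 bases after the start, a promoter is termed CpG-rich when it holds at least 0.6 times the CG pairs that its C and G content would give. This was so for 67.2% of the 14640 protein-coding promoters, for 83.4% of those of expressed genes and for 24.6% of those of genes with no read. Only 1 of the 25 monocyte identity promoters matched (4%) was CpG-rich, although 27 of the 30 genes of that list were expressed, and only 1 of 19 granule promoters (5.26%). All 25 proliferation promoters were CpG-rich, as were 97.0% of the ribosomal protein promoters. The box TATAAA, read on the gene's strand from 40 to 20 bases before the start, was found in 3.43% of all promoters, in 10% of those without a read and in 1.47% of those expressed. The ETS-type letters CCGGAAGT, on either strand, were found in 9.22% of promoters of expressed genes and in 0.705% of those without a read. The PU.1-type letters GAGGAAGT, on either strand, were found in 2.55% of all promoters and in 1 of the 25 monocyte identity promoters, a share near that of all. The motifs do not overlap in their letters except for the shared core GGAAGT, and a match is not evidence of binding.

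**Figure D5:**
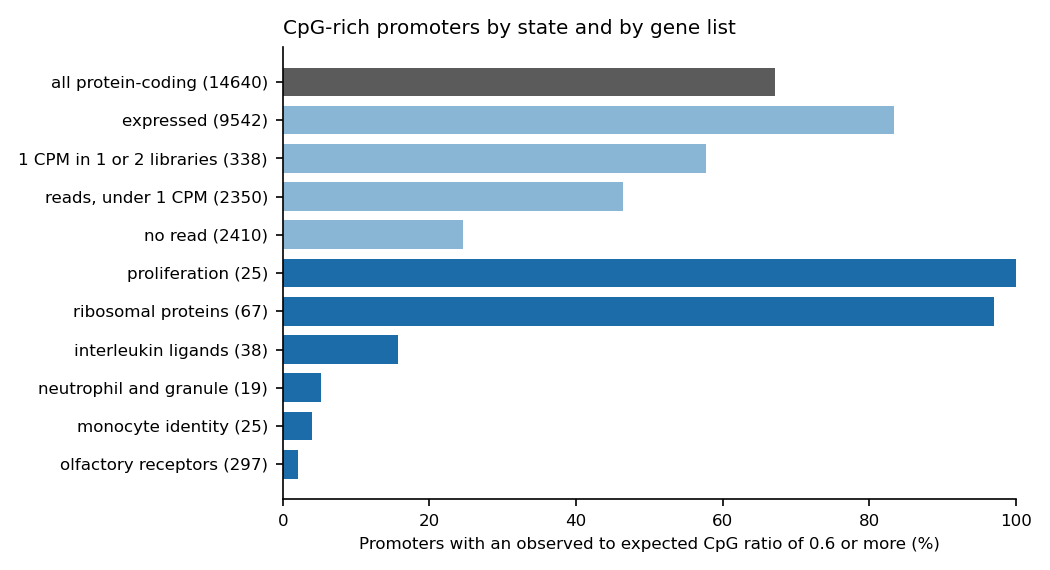
Share of promoters (number in parentheses) with an observed to expected CpG ratio of 0.6 or more, for all protein-coding genes, by state in the DMSO libraries and for 6 gene lists. The share falls from 83.4% in expressed genes to 24.6% in genes without a read, while the monocyte identity list, nearly all expressed, stands at 4%.

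The 3 libraries were close to each other. Over the 10223 genes with a mean of 100 reads or more, the highest library exceeded the lowest by a median factor of 1.08, and by more than 1.5 in 12 genes. The common biological coefficient of variation, the spread beyond counting error, was 3.03%. The libraries nevertheless differed by more than counting alone, with a chi-square per degree of freedom of 2.19 to 2.43 between pairs. The source of this difference was not tested.

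The gene with the largest ratio was EGR1, an immediate early factor induced within minutes of a stimulus, with 1407, 1382 and 933 reads, or 99.98, 102 and 59.8 CPM. Replicate 3 was the low library, and the highest exceeded it 1.71-fold. Related early genes, chosen here after their values were seen, were also lowest in replicate 3: FOS had 127, 142 and 95.3 CPM, JUNB had 52.6, 62.8 and 48.5 CPM, IER2 had 75.5, 83.2 and 65.4 CPM and EGR3 had 9.10, 10.4 and 7.31 CPM. JUN, also lowest there, differed less, with 98.3, 104 and 94.6 CPM. The other 11 genes with the largest ratios (CCDC39, SPA17, TTBK2, SLCO4A1, STARD4-AS1, TPST1, KIAA1147, JMY, MNT, KIAA1614 and SLC37A3) shared no single low library. CCDC39, a protein of motile cilia, had 6.82, 9.99 and 5.90 CPM, with replicate 2 the highest, and SPA17, a sperm protein, had 8.67, 5.18 and 7.31 CPM, with replicate 2 the lowest. These 11 genes had between 70 and 268 reads in each library.

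A value of 0 does not always mean that an RNA was absent. EIF4A1, the helicase of translation initiation and a gene of all dividing cells, had no read in any library, and its exons are shared with a joint SENP3-EIF4A1 row that had 21 reads. The splicing helicase DDX39B had 11 reads, and its joint row ATP6V1G2-DDX39B had none. These genes were named after their values were seen. The table holds 114 such joint rows whose parts are also rows of their own, and of these 114 rows 6 were expressed and 47 had no read. Of the 227 genes that are part of such a row 127 (55.9%) were expressed and 48 (21.1%) had no read. The share without a read was 25.7% in the table. Of the 227 genes 222 are protein-coding, and 20.3% of these had no read, against 17.3% of all protein-coding genes. Among the genes of the lists 19 are part of a joint row, and 11 of them were not expressed. Of all 2316 list genes 649 were expressed. How the counting treated reads that fall on exons of 2 rows is not given in the sources used here, and its part in these values was not tested.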

How the data were processed

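RNA was measured by sequencing poly(A) RNA of THP-1 cells, in libraries made with Illumina TruSeq RNA v2 reagents per the labels' protocols, a kit without strand information. What the authors deposited is a table of unscaled read counts, with gene symbols in rows and 1 column for each library. STAR, bedtools, HTSeq, DESeq2 and the build hg19 are named per the submitters' processing notes, without versions or roles. The annotation, the strand setting, any filter and the handling of reads that match more than 1 gene are not stated in the labels or the file header. Columns of no sample numbered 0.

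The 3 DMSO libraries alone were scaled by TMM in R 4.3.3 with edgeR 4.0.16, and summarised in Python 3.11.15 with pandas 2.3.3. No test between groups was made. The spread between libraries was estimated with edgeR's dispersion fit on expressed genes. The fit was also run on simulated counts, all with a larger spread than that found here, so its recovery of so low a spread was not checked. Transcript lengths came from GENCODE 29, matched by symbol: 21257 symbols by name, 1114 by another name and 1339 not at all, with 99.6% of reads in genes with a length. Promoters and gene order came from RefSeq tables of GRCh38.p14, another build than that of the counts, and no coordinate of a count is given. Limits for genes without a read use 3 counts and cover counting error only.

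Lists held 2316 genes of the table in 51 lists. The genes named are the 30 highest by CPM and by TPM, the 6 members with most reads in each list and up to 8 without a read, all members of 7 lists on monocytes, Toll-like and chemoattractant receptors, HOX genes, myeloid factors, tumour suppressors and the oxidase, the 12 most variable genes with a mean of 100 reads, and list genes next to the threshold. Some genes this rule takes are not reported here, by name or in the plots of levels, and they stay in the counts of each list. Other list members are named as examples, chosen after their values were seen. The members and lists were chosen with earlier results of these data known. Other scalings (library totals, DESeq2 1.42.0 size factors), thresholds, lengths and leaving out each library were tried as alternatives.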

Additional observations from a re-analysis of the deposited data

How the results depend on the processing

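The number of expressed genes, 12565, was the same with library totals and with DESeq2 size factors in place of TMM, and was 13333 at 0.5 CPM, 11750 at 2 CPM, 12943 with edgeR's filterByExpr and 12039 at 1 TPM. Leaving out each library in turn gave 12643 to 12673. Of the list genes 649 were expressed, with 592 at 2 CPM, 723 at 0.5 CPM and 654 to 659 when a library was left out. Genes without a read numbered 6091, against 6490 to 6532 with a library left out and 7980 with up to 3 reads. The common biological coefficient of variation of 3.03% was 3.04% with library totals, 3.06% on all genes with a read and 3.00% on genes at 10 CPM, and 2.97% to 3.10% with a library left out. Of the 30 genes highest by TPM, 21 stayed among the 30 with the longest transcript or the union of exons as length, so the order within the top depends on the length used. For the 363 named genes at a mean of 1 CPM or more, the other scalings changed a level by at most 1.002-fold. The largest change without a library, 14.4-fold, came from leaving out replicate 1 for RPPH1, an RNA without a poly(A) tail. No paired analysis was possible because no comparison between groups was made. Depth limits statements below about 0.2 CPM in a single library.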
